A study of Mus musculus with 6 samples.

Results

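Cyclic nucleotide phosphodiesterases (PDEs) were examined in cultured mouse cortical neurons with and without Fmr1. The members were the rows of the count table named Pde4a, Pde4b, Pde4c, Pde4d, Pde2a, Pde10a, Pde1a, Pde1b, Pde1c and Pde7b, 10 of 55367 rows, and 9 of them had enough counts to be tested. The libraries came from the cerebral cortex of C57BL/6J pups at postnatal day 1 (P1), 3 of them wild-type (WT) and 3 Fmr1-KO, from mice without FMRP, the RNA-binding protein missing in fragile X syndrome. Cells of both genotypes were dissociated with papain and, according to the methods, depleted of ACSA2+ astrocytes and of myelin. They were then kept for 2 days in vitro in Neurobasal medium with B27 Plus. Fmr1-KO was compared with WT in a study of how loss of FMRP affects nonsense-mediated mRNA decay (NMD), which degrades particular mRNAs. The labels do not say which animals or litters gave each library, whereas the study describes the samples as independently derived, so the P values measure the spread between these libraries.

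PDEs hydrolyse the second messengers cAMP and cGMP, which adenylyl and guanylyl cyclases make, and thereby set how far and how long these messengers act on protein kinase A (PKA), the EPAC exchange factors and cGMP-dependent kinases. PDE4 and PDE7 enzymes are specific for cAMP, PDE1 enzymes cleave both messengers when Ca2+/calmodulin binds them, PDE2A cleaves cAMP faster when cGMP binds it, and PDE10A accepts both. In the adult forebrain PDE10A, PDE1B and PDE7B are known for high levels in the projection neurons of the striatum, and PDE4 enzymes are the targets of rolipram. Impaired cAMP production is a long-standing theme in fragile X research, and PDE inhibition has been explored as a treatment.

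Levels are given as CPM, counts scaled to a common library size. Of the 9 tested members, 6 fell and 2 rose in the Fmr1-KO libraries at an adjusted P under 0.05 (edgeR's quasi-likelihood test, Benjamini-Hochberg over all 16976 tested genes). Across all tested genes 21.9% were called lower and 20.7% were called higher. Pde7b, Pde10a, Pde4a, Pde4b, Pde1a and Pde4d made up the lower group, Pde1c and Pde1b the higher group, and Pde2a did not pass the threshold. In 5 of the 9 every Fmr1-KO library lay below every WT library, compared with 26.3% of all tested genes, and in 2 every Fmr1-KO library lay above, compared with 25.4%. The median log2 fold-change of the 9 was -0.24, while that of all tested genes was 0.01. A called gene had a median absolute log2 fold-change of 0.29 in this experiment, and Pde7b, Pde10a, Pde1c, Pde4a and Pde4b exceeded it.

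**Figure D1:**
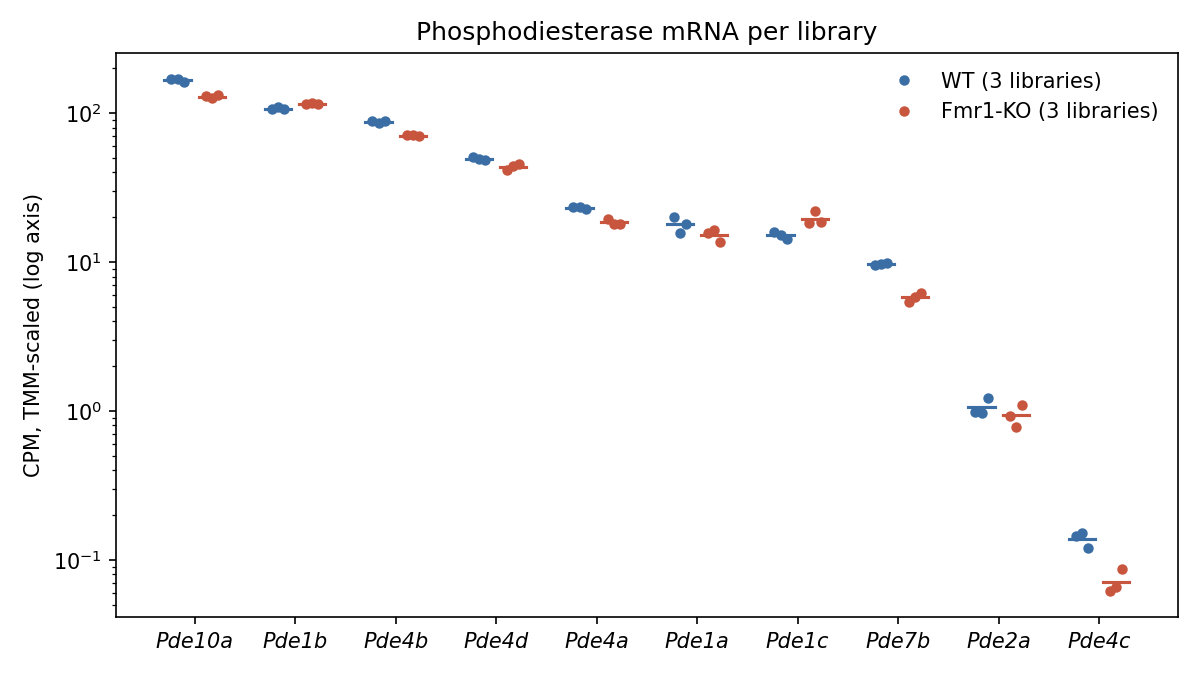
Level of each of the 10 members in every library, as TMM-scaled CPM on a log axis, with WT in blue, Fmr1-KO in red and a bar at each group's mean (n = 3). Pde10a, Pde4b, Pde4d, Pde4a and Pde7b sit lower in all 3 Fmr1-KO libraries, Pde1b and Pde1c sit higher, and Pde4c lies near the bottom with 2 to 5 counts per library.

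Depth was similar throughout, with 30348556 to 35126207 counts per library. Fmr1 was read as a check of the labels: its level was 109.6 to 118.3 CPM in WT and 54.2 to 61.4 CPM in Fmr1-KO, a log2 fold-change of -0.98 (SE 0.04). Its mRNA stayed at 50.6% of the WT mean, so the check rests on a fall and not on absence of the mRNA. Pan-neuronal markers were detected in all libraries. All 10 of them, which include Tubb3, Map2 and Snap25, were called lower in Fmr1-KO, with summed levels of 3539 to 3614 CPM in WT and 2699 to 2848 CPM in Fmr1-KO. Excitatory neuron markers were lower for 4 of 9 and higher for 5 (669.5 to 677.4 and 641.7 to 673.9 CPM), and GABAergic markers were lower for 5 of 9 and higher for 4 (754.5 to 786.6 and 787.6 to 866.2 CPM). These 2 sums hide large moves of single genes. Slc17a7 fell from 20.2 to 3.69 CPM, Sst from 43.6 to 7.53 CPM and Npy from 27.4 to 5.05 CPM. Neurod2 rose from 85.0 to 99.0 CPM and Dlx1 from 257.0 to 354.3 CPM. Markers of proliferating cells were higher for 7 of 7 (350.4 to 393.6 CPM summed in WT, 644.6 to 713.9 CPM in Fmr1-KO), and those of neural progenitors were higher for 5 of 8 tested with 0 lower (1736 to 1751 and 2040 to 2134 CPM). Oligodendrocyte lineage markers were lower for 9 of 9 (1935 to 2104 and 1100 to 1186 CPM), microglial markers for 7 of 8 (236.9 to 252.5 and 148.4 to 165.2 CPM) and astrocyte markers for 4 of 8 with 2 higher (5090 to 5211 and 4488 to 4861 CPM). Glial genes were abundant despite the depletion. Per kilobase of exon, Gfap measured 628 CPM in WT and Mbp 125 CPM, beside 585 CPM for Tubb3. The PDE levels were thus read from RNA that held glial as well as neuronal genes. Of the endothelial and mural markers 4 of 8 tested were higher and 2 lower (323.4 to 348.1 and 528.0 to 545.9 CPM). Acta2 (176.1 to 322.0 CPM) and Tagln (83.1 to 133.7 CPM) made up most of that sum, while Cdh5 and Rgs5 were the 2 called lower. Such sums follow their most abundant genes. In the progenitor sum Vim measured 1202.9 CPM in WT and 1402.2 CPM in Fmr1-KO, and Eomes 10.5 and 72.8 CPM. No marker of any list was at 0 in all libraries. These lists moved with genotype as the PDE genes did, and their part in the PDE differences was not tested. In bulk RNA, fewer cells of a type and less RNA per cell cannot be told apart.

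Promoters of the members differ in base composition. For the members whose levels were highest per length (Pde1b, Pde10a and Pde4b) and for the one with the largest difference (Pde7b), the promoter furthest upstream in the RefSeq table is printed here, from 250 bases before to 50 after the transcript start, on the gene's strand. Capitals mark GC boxes (GGGCGG or its reverse complement CCGCCC) and half-sites of the cAMP response element, CRE (TGACG or its reverse complement CGTCA). Coordinates are those of GRCm38.p6, and the gene annotation holds transcripts of Pde10a, Pde4b and Pde7b that begin further upstream, so the start used in these cells is not known.
Pde7b, chr10:20548279-20548578, minus strand: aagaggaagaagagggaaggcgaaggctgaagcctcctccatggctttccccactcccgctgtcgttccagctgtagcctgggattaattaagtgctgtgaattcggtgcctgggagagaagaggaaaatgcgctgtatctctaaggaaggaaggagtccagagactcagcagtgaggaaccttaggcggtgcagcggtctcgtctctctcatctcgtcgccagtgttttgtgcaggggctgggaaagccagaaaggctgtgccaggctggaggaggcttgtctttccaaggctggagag
Pde10a, chr17:8801495-8801794, plus strand: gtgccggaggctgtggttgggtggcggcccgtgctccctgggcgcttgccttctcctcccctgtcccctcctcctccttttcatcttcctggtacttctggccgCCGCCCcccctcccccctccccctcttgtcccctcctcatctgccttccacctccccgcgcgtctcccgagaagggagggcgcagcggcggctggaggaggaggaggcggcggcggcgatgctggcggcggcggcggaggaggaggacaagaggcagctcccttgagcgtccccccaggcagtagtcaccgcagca
Pde1b, chr15:103502784-103503083, plus strand: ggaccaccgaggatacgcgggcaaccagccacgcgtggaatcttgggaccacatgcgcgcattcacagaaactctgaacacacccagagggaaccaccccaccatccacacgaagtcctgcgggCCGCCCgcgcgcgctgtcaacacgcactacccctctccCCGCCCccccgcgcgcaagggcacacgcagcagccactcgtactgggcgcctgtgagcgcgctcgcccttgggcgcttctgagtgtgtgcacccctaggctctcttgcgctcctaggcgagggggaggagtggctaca
Pde4b, chr4:102421305-102421604, plus strand: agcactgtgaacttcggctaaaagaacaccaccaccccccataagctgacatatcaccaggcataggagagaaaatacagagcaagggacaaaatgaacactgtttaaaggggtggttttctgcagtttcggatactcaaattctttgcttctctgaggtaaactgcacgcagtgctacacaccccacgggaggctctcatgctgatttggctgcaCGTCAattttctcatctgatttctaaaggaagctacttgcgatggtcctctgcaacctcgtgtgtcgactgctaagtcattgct

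The Pde10a and Pde1b promoters are GC-rich, with 71.3% and 67.0% GC and 23 and 28 CpG dinucleotides in 300 bases. Pde10a holds 1 GC box, at position -146 from the transcript start, and Pde1b holds 2, at -126 and -88. Pde4b has 47.0% GC and 8 CpGs, with 1 CRE half-site at -34. The single Pde7b promoter has 55.7% GC and 10 CpGs and none of the motifs searched. Over all 27 promoters of the 10 members, the full CRE (TGACGTCA) was in 0, the half-site in 4, the GC box in 6 and the TATA box (TATAAA or its reverse complement TTTATA) in 3. Among all 32851 promoters of that length, 1.79% hold the CRE, 20.8% the half-site, 35.7% the GC box and 13.6% the TATA box. Both strands were searched, a full CRE also counts as a half-site, and a match is a description of letters, not a binding site.

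Per kilobase (kb) of exon, the levels in WT spanned from 19.9 CPM per kb for Pde1b to 0.0247 CPM per kb for Pde4c. Pde10a followed Pde1b at 13.1, then Pde4b at 8.32 and Pde4d at 4.13 CPM per kb. Pde4a (3.03 CPM per kb, range 2.96 to 3.06) and Pde1a (3.00, range 2.62 to 3.35) did not differ beyond the spread between libraries. The same held for Pde7b (0.779 CPM per kb, range 0.763 to 0.792) and Pde1c (0.753, range 0.714 to 0.791). Pde2a came next at 0.172 CPM per kb. The libraries of all other neighbours in this order did not overlap. In Fmr1-KO the order was kept for the 4 highest, and Pde1c, at 0.978 CPM per kb, now lay above Pde7b, at 0.466 CPM per kb, in every library. Pde4a and Pde1a overlapped again, at 2.42 and 2.55 CPM per kb. A gene's exons were taken as the union over all its transcripts, and with the longest transcript as the length the WT order of the 10 genes was unchanged.

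Pde4a, Pde4b and Pde4d encode the cAMP-specific PDE4 enzymes of neurons, and all 3 were called lower in Fmr1-KO. Pde4b, the most abundant of them, lies on chromosome 4 (102087543 to 102607259, plus strand, GRCm38). It measured 88.1, 86.3 and 89.2 CPM in the WT libraries and 71.2, 71.0 and 69.9 CPM in the Fmr1-KO libraries. The 3 Fmr1-KO values lay within 2 CPM of each other, and all were below the lowest WT value. From 87.8 ± 1.49 CPM (SD, n = 3) in WT to 70.7 ± 0.701 CPM in Fmr1-KO, its level fell by 19.5%, with a log2 fold-change of -0.31 (SE 0.03, edgeR adjusted P = 2.11e-07). Pde4b was the only member on the study's list of NMD targets, which was drawn up in a neuroblastoma line and not in these cells.

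Pde4a, on chromosome 9 (21165714 to 21213248, plus strand), measured 23.4, 23.4 and 22.7 CPM in WT and 19.5, 17.97 and 18.1 CPM in Fmr1-KO. Fmr1-KO replicate 1 was the highest of its group and still below every WT library. The level fell by 20.02%, from 23.2 ± 0.440 to 18.5 ± 0.871 CPM (SD, n = 3), a log2 fold-change of -0.32 (SE 0.06, edgeR adjusted P = 0.000102). In proportion Pde4a and Pde4b moved alike: the ratio of Pde4b to Pde4a per kb was 2.75 ± 0.0932 in WT and 2.77 ± 0.115 in Fmr1-KO.

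Pde4d, the longest member gene, spans chromosome 13 from 108449948 to 109953461 on the plus strand. Its values were 51.2, 49.2 and 48.4 CPM in WT and 41.8, 44.1 and 45.7 CPM in Fmr1-KO. The groups did not overlap, but Fmr1-KO replicate 3 came closer to WT than any Fmr1-KO library did for Pde4a or Pde4b in relative terms. Its level fell by 11.6%, from 49.6 ± 1.43 to 43.9 ± 1.97 CPM (SD, n = 3), with a log2 fold-change of -0.18 (SE 0.04, edgeR adjusted P = 0.00252). The 95% intervals of the log2 fold-changes were -0.39 to -0.24 for Pde4b, -0.44 to -0.20 for Pde4a and -0.27 to -0.09 for Pde4d.

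Pde4c, on chromosome 8 (70723720 to 70751186, plus strand), is the PDE4 gene known for little brain expression. Only 5, 5 and 4 counts fell on it in WT, and 2, 2 and 3 in Fmr1-KO, so the Fmr1-KO values were at or under 3 counts and no fold is given. It did not enter the test; in a fit without a filter on low counts the adjusted P was 0.469 by edgeR, so a difference was not detectable at this depth. Summed over the 4 genes, PDE4 mRNA amounted to 15.7, 15.3 and 15.5 CPM per kb in WT and 12.8, 12.8 and 12.8 CPM per kb in Fmr1-KO, so the mean fell by 17.5%.

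Pde7b, encoding a cAMP-specific enzyme that rolipram does not inhibit, showed the largest difference among the tested members. The gene lies on chromosome 10 (20398004 to 20725078, minus strand). Its counts were 330, 321 and 329 in WT and 176, 178 and 215 in Fmr1-KO, which is 9.49, 9.71 and 9.86 CPM in WT and 5.41, 5.81 and 6.18 CPM in Fmr1-KO. The WT libraries were nearly equal, and the highest Fmr1-KO library was far below them. The level fell by 40.1%, from 9.69 ± 0.183 to 5.80 ± 0.384 CPM (SD, n = 3), with a log2 fold-change of -0.74 (SE 0.09, 95% interval -0.92 to -0.56, edgeR adjusted P = 4.47e-07). Only 4.09% of tested genes had a lower log2 fold-change. Pde7a, its paralog, moved the other way: 101.5 ± 1.36 CPM in WT and 107.8 ± 1.88 CPM in Fmr1-KO, or 0.09 on the log2 scale (edgeR adjusted P = 0.0370).

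Pde10a, on chromosome 17 (8525372 to 8986648, plus strand), had the most counts of the members, from 3881 to 5937 per library. It measured 170.8, 169.7 and 162.9 CPM in WT and 129.8, 126.8 and 131.9 CPM in Fmr1-KO. A gap of over 30 CPM separated the lowest WT from the highest Fmr1-KO library. The level fell by 22.8%, from 167.8 ± 4.28 to 129.5 ± 2.57 CPM (SD, n = 3), with a log2 fold-change of -0.37 (SE 0.03, edgeR adjusted P = 5.81e-09), and 11.4% of tested genes had a lower one.

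Pde1b, the other member known for striatal projection neurons, did not follow Pde10a and Pde7b. On chromosome 15 (103503034 to 103530052, plus strand), it measured 106.6, 109.5 and 106.7 CPM in WT and 114.7, 117.7 and 116.1 CPM in Fmr1-KO. All Fmr1-KO libraries were above all WT libraries, by a small margin. The level rose from 107.6 ± 1.66 to 116.2 ± 1.497 CPM (SD, n = 3), by 7.98%, with a log2 fold-change of 0.11 (SE 0.03, edgeR adjusted P = 0.00848). Per kb, Pde10a mRNA was 0.673, 0.651 and 0.641 times Pde1b mRNA in the WT libraries and 0.475, 0.452 and 0.477 times in the Fmr1-KO libraries.

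The striatal marker list itself was divided. Of 12 markers 7 were called lower and 2 higher, with summed levels of 168.7 to 172.3 CPM in WT and 130.3 to 141.3 CPM in Fmr1-KO. Across all tested genes 21.9% were called lower and 20.7% higher. The mean of the striatal sums fell by 20.5%, and that of the pan-neuronal sums given above by 22.3%. Ppp1r1b, which encodes DARPP-32, fell from 36.3 to 19.3 CPM and Drd1, the D1 dopamine receptor, from 3.09 to 1.29 CPM, whereas Drd2, the D2 receptor, measured 12.3 and 12.4 CPM and did not pass the threshold. Six3 and Isl1 were the markers called higher. These markers were detected in all libraries of a culture labelled cerebral cortex, and their part in the Pde10a and Pde7b differences was not tested.

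**Figure D2:**
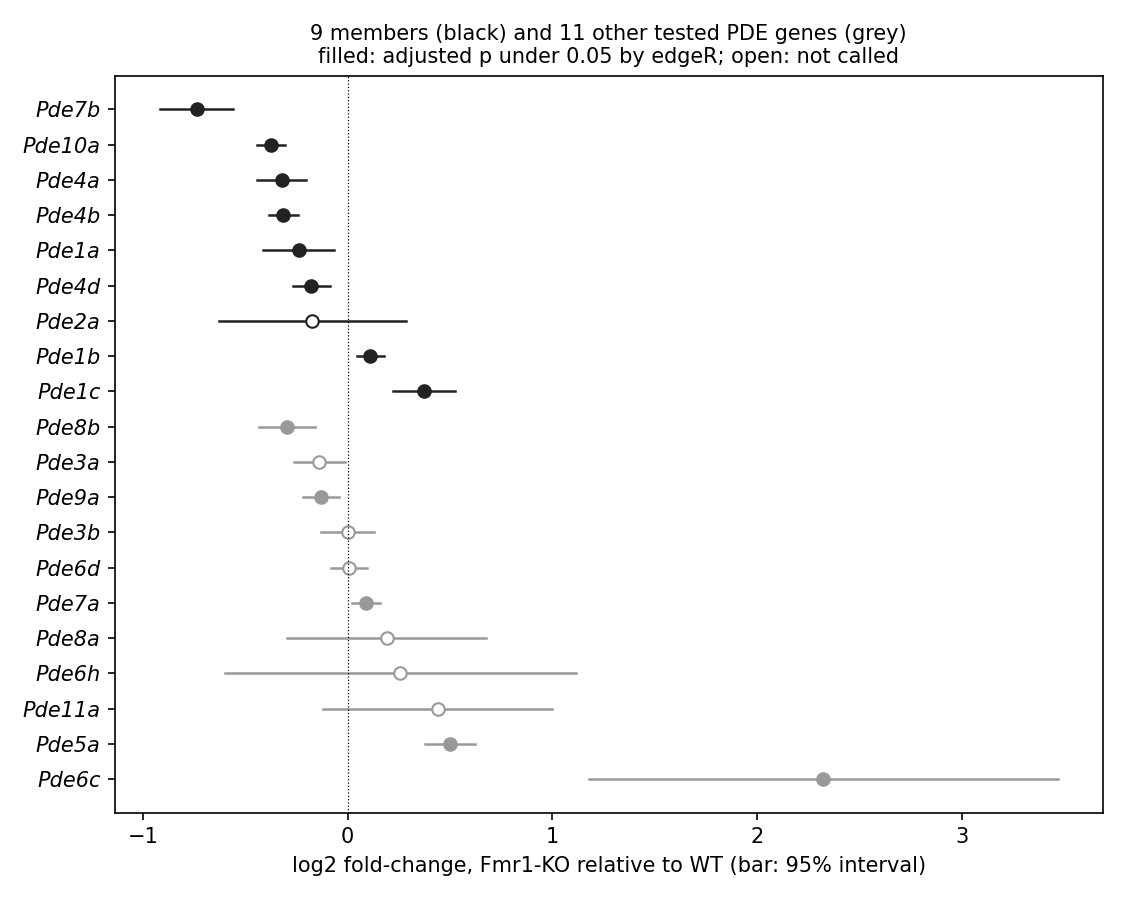
Log2 fold-change, Fmr1-KO relative to WT, for the 9 tested members (black) and the 11 other tested PDE genes (grey), with 95% intervals as bars (n = 3 per genotype). Filled points passed an adjusted P of 0.05 by edgeR, with Pde7b at -0.74 the lowest member and Pde1c at 0.37 the highest. The intervals of Pde2a, of several other low-count genes and of the well-counted Pde3b and Pde6d cross 0.

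The PDE1 genes, whose enzymes couple Ca2+ to cyclic nucleotide breakdown, moved in different directions. Pde1c, on chromosome 6 (56069804 to 56569103, minus strand), encodes the PDE1 enzyme that cleaves cAMP and cGMP about equally well. It measured 15.9, 15.2 and 14.3 CPM in WT and 18.3, 21.9 and 18.7 CPM in Fmr1-KO. Fmr1-KO replicate 2 stood above the other two, and all Fmr1-KO libraries lay above all WT libraries. The mean rose by 29.8%, from 15.1 ± 0.780 to 19.6 ± 1.97 CPM (SD, n = 3), with a log2 fold-change of 0.37 (SE 0.07, edgeR adjusted P = 0.000235), and 10.2% of tested genes had a higher one. Without Fmr1-KO replicate 2 the log2 fold-change was 0.29.

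Pde1a, on chromosome 2 (79834453 to 80129458, minus strand), encodes a PDE1 enzyme that prefers cGMP. Its values were 20.1, 15.8 and 18.1 CPM in WT and 15.7, 16.5 and 13.7 CPM in Fmr1-KO. The groups overlapped, since WT replicate 2 lay below Fmr1-KO replicate 2. Its log2 fold-change of -0.24 (SE 0.08, edgeR adjusted P = 0.0251) separated means of 18.01 ± 2.19 and 15.3 ± 1.45 CPM (SD, n = 3). Leaving out WT replicate 1 (-0.15, edgeR adjusted P = 0.192) or Fmr1-KO replicate 3 (-0.16, edgeR adjusted P = 0.152) ended the call. Within each library, Pde1c mRNA per kb was 0.236, 0.288 and 0.237 times Pde1a mRNA in WT and 0.349, 0.397 and 0.4095 times in Fmr1-KO. Summed, PDE1 mRNA was 23.5 to 23.9 CPM per kb in WT and 24.7 to 25.7 CPM per kb in Fmr1-KO.

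Pde2a encodes the cGMP-stimulated PDE, which lets cGMP lower cAMP, and lies on chromosome 7 (101421691 to 101512827, plus strand). It had 34, 32 and 41 counts in WT and 30, 24 and 38 in Fmr1-KO, or 0.978, 0.968 and 1.23 CPM and 0.923, 0.784 and 1.09 CPM. The groups overlapped, and the log2 fold-change of -0.17 (SE 0.22) had a 95% interval of -0.63 to 0.28 (edgeR adjusted P = 0.565), which leaves room for a difference as large as that of Pde10a. The low level is uncertain for a reason in the annotation: 3955 bases, or 64.3% of its exon sequence, overlap the exons of Gm45837 on the same strand, and by default the counting program leaves out reads that fall on exons of more than 1 gene. Per kb of the exon sequence that no other gene shares, Pde2a measured 0.482 ± 0.0673 CPM in WT and 0.425 ± 0.0704 CPM in Fmr1-KO (SD, n = 3). No other member shared over 10% of its exon bases.

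The make-up of the members' mRNA pool can be read from the same values. Other PDE genes lie outside it, and some are as abundant as its larger members. Pde7a measured 13.1 CPM per kb in WT and 13.9 in Fmr1-KO, and Pde9a 11.8 and 10.8. The shares are therefore shares of the 10 members and not of all PDE mRNA. Summed over the 10 members, the pool was 53.8, 53.2 and 52.6 CPM per kb in WT and 48.2, 48.9 and 48.5 CPM per kb in Fmr1-KO, so the mean fell by 8.78%. PDE1 genes took 44.5 ± 0.120% of it in WT and 51.6 ± 0.768% in Fmr1-KO (SD, n = 3). PDE4 genes took 29.1 ± 0.258% and 26.3 ± 0.204%, and Pde10a took 24.6 ± 0.404% and 20.8 ± 0.516%. Pde7b went from 1.46% to 0.961% and Pde2a from 0.324% to 0.313%. The share of Pde2a used its full exon length, which gave 0.172 CPM per kb in WT, where unshared exon gave 0.482, so this share may be too low. The libraries of the genotypes did not overlap for the total or for any of these shares except that of Pde2a. With 3 libraries against 3, an exact permutation test cannot give a two-sided p below 0.10, so the shares are given as a description. The shares depend on the exon length used, and with the longest transcript as length PDE4 genes took more of the WT pool (40.3 ± 0.332%) than PDE1 genes (34.1 ± 0.0493%). On that scale the Fmr1-KO shares were 37.5 ± 0.200% for PDE4 and 40.6 ± 0.754% for PDE1, so the share of PDE4 was again lower and that of PDE1 higher in Fmr1-KO than in WT.

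**Figure D3:**
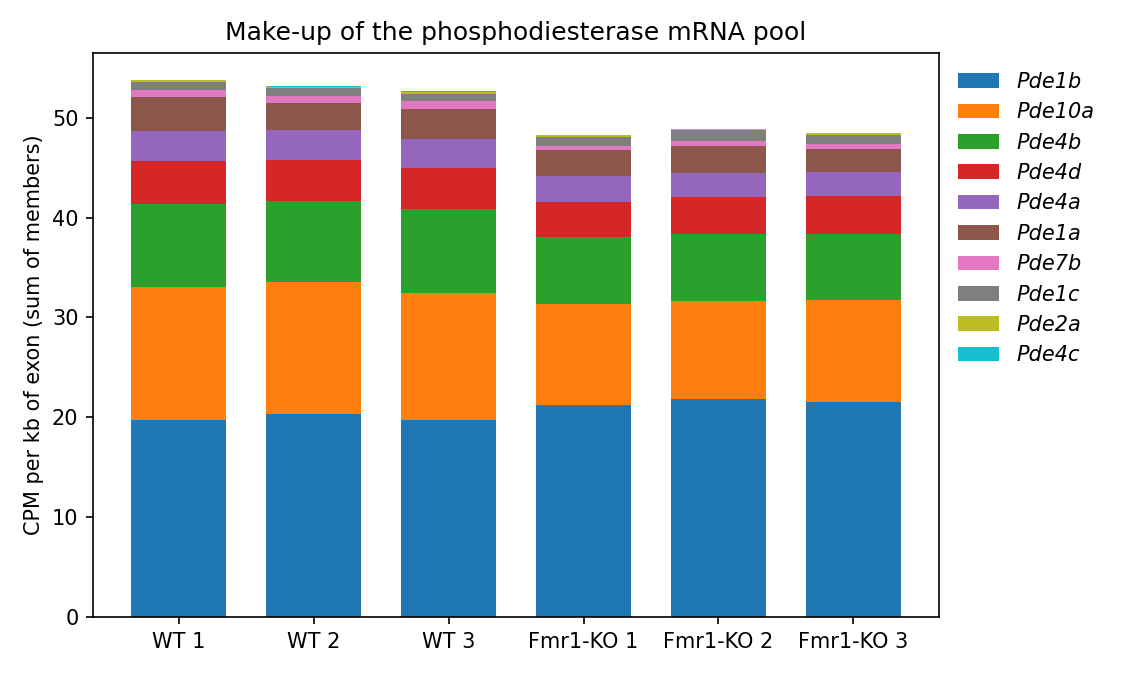
Summed level of the 10 members in each of the 6 libraries, in CPM per kb of exon, stacked by gene. The total is 52.6 to 53.8 in WT and 48.2 to 48.9 in Fmr1-KO, and the Pde1b segment (blue, bottom) grows while the Pde10a segment (orange) and the PDE4 segments shrink.

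Other PDE genes were read from the same fit. Of the 11 other catalytic genes 9 were tested, 2 were lower and 3 higher, with a median log2 fold-change of 0.09. Beside this and the list counts below stand the shares over all tested genes, 21.9% called lower and 20.7% called higher. Pde5a, a cGMP-specific PDE and the target of sildenafil, rose from 19.1 ± 0.348 to 27.0 ± 1.66 CPM (SD, n = 3), a log2 fold-change of 0.50 (SE 0.06, edgeR adjusted P = 4.24e-07). Pde8b, a high-affinity cAMP enzyme, fell from 19.0 to 15.4 CPM (-0.30, edgeR adjusted P = 0.000856), and Pde9a, a high-affinity cGMP enzyme, fell from 41.8 to 38.2 CPM (-0.13, adjusted P = 0.0188). Pde3a (-0.14, edgeR adjusted P = 0.0723) and Pde3b (-0.00, adjusted P = 0.995), which encode PDEs that cGMP inhibits, did not pass the threshold. Pde6c, a cone photoreceptor PDE, was called higher on 7, 2 and 0 counts in WT and 10, 17 and 18 counts in Fmr1-KO, and it passed the filter on low counts only through the Fmr1-KO libraries. Without it, 2 of 8 tested catalytic genes were lower and 2 higher, with a median log2 fold-change of 0.04, and under a stricter filter the median of the list was -0.06. Of the non-catalytic PDE6 subunits, 2 of 3 were tested and neither was called, with Pde6d at 43.3 CPM in WT and 43.5 CPM in Fmr1-KO.

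On the side of synthesis, 6 of 8 tested adenylyl cyclases were lower and 1 was higher, with a median log2 fold-change of -0.36. Adcy1, the Ca2+/calmodulin-stimulated cyclase of cortical neurons, fell from 256.0 ± 5.51 to 105.4 ± 5.39 CPM (SD, n = 3), a log2 fold-change of -1.28 (SE 0.04, edgeR adjusted P = 3.19e-16). Adcy8, also stimulated by Ca2+/calmodulin, fell from 16.9 to 9.75 CPM (-0.79), and Adcy5, the main striatal cyclase, from 70.4 to 43.5 CPM (-0.70). Adcy6 was the one called higher, from 71.2 to 76.9 CPM (0.11). Each of the falls in Adcy1 and Adcy8 was larger on the log2 scale than that of any member, and no test compared them.

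Genes for cGMP synthesis were divided, with 3 of 9 tested lower and 3 higher (median log2 fold-change 0.05). Nos1, neuronal nitric oxide synthase, fell from 31.2 to 15.4 CPM (-1.02), and the soluble guanylyl cyclase subunits Gucy1b1 and Gucy1a1 fell from 115.6 to 68.3 CPM (-0.76) and from 127.0 to 94.3 CPM (-0.43). Npr2, a membrane receptor with guanylyl cyclase activity, rose from 39.4 to 45.0 CPM (0.19), and the others called higher, Gucy1b2 and Gucy2f, averaged under 5 CPM. Gucy1b2, also a soluble guanylyl cyclase subunit, rose from 3.59 to 5.995 CPM (0.74), and Gucy1a2, another, measured 4.28 and 4.27 CPM and did not pass the threshold. This median changed sign under some alternatives.

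Of 7 G protein alpha subunits that act on adenylyl cyclase, 5 were lower and 0 higher (median log2 fold-change -0.20). Gnai2 (0.07, edgeR adjusted P = 0.0516) and Gnai3 (0.07, edgeR adjusted P = 0.0588) were not called. For both, every Fmr1-KO library still lay above every WT library. Gnal, which couples striatal and olfactory receptors to the cyclase, fell from 201.7 to 124.3 CPM (-0.70), Gnaz from 47.2 to 34.1 CPM (-0.47) and Gnai1 from 98.7 to 71.8 CPM (-0.46). PKA subunits and inhibitors were lower for 6 of 9 and higher for 0 (median -0.19), led by the regulatory subunits Prkar1b, from 168.5 to 98.2 CPM (-0.78), and Prkar2b (-0.45). Of the EPAC genes, Rapgef4 fell from 28.5 to 16.9 CPM (-0.75) and Rapgef3 rose from 34.0 to 40.3 CPM (0.24). The cGMP-dependent kinases Prkg1 (-0.34) and Prkg2 (-0.47) were both lower, and were the only 2 of their list of 8, which also held the cyclic nucleotide-gated channels, with enough counts to be tested.

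Among proteins that bind PDE enzymes, 4 of 9 genes were lower and 0 higher (median log2 fold-change -0.19). Among them were Calm3 (-0.26) and Calm2 (-0.23), which encode calmodulin, the activator of PDE1, and Pde4dip, which encodes the anchoring protein myomegalin (-0.25). Disc1, Rack1, Arrb1 and Arrb2 did not pass the threshold. A-kinase anchoring proteins hold PKA and some PDE4 enzymes in place, and 3 of 12 tested were lower and 3 higher (median 0.01). These counts were near the shares over all tested genes, 21.9% lower and 20.7% higher. Akap7 fell from 41.5 to 27.1 CPM (-0.62), and Akap9 was called higher (0.33) although its groups overlapped.

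Downstream, 4 of 7 genes for CREB family factors and coactivators were higher and 1 lower (median log2 fold-change 0.11), with Creb1 at 0.16, Atf1 at 0.16 and Crtc1 at -0.15. The groups of Creb1 overlapped, with WT replicate 2 at 108.3 CPM and Fmr1-KO replicate 2 at 106.4 CPM. Of 12 genes that respond to cAMP and CREB, 6 were lower and 4 higher (median -0.18). Egr3 fell from 9.07 to 3.64 CPM (-1.31), Nr4a2 from 8.87 to 4.42 CPM (-1.004) and Nr4a1 from 14.9 to 11.2 CPM (-0.41), while Dusp1 rose from 16.3 to 22.6 CPM (0.48), Egr1 from 28.6 to 36.8 CPM (0.36) and Arc from 4.86 to 6.16 CPM (0.34). These genes also respond to other signals. The cell markers given above moved with genotype beside all these lists, and their part in them was not tested.

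**Figure D4:**
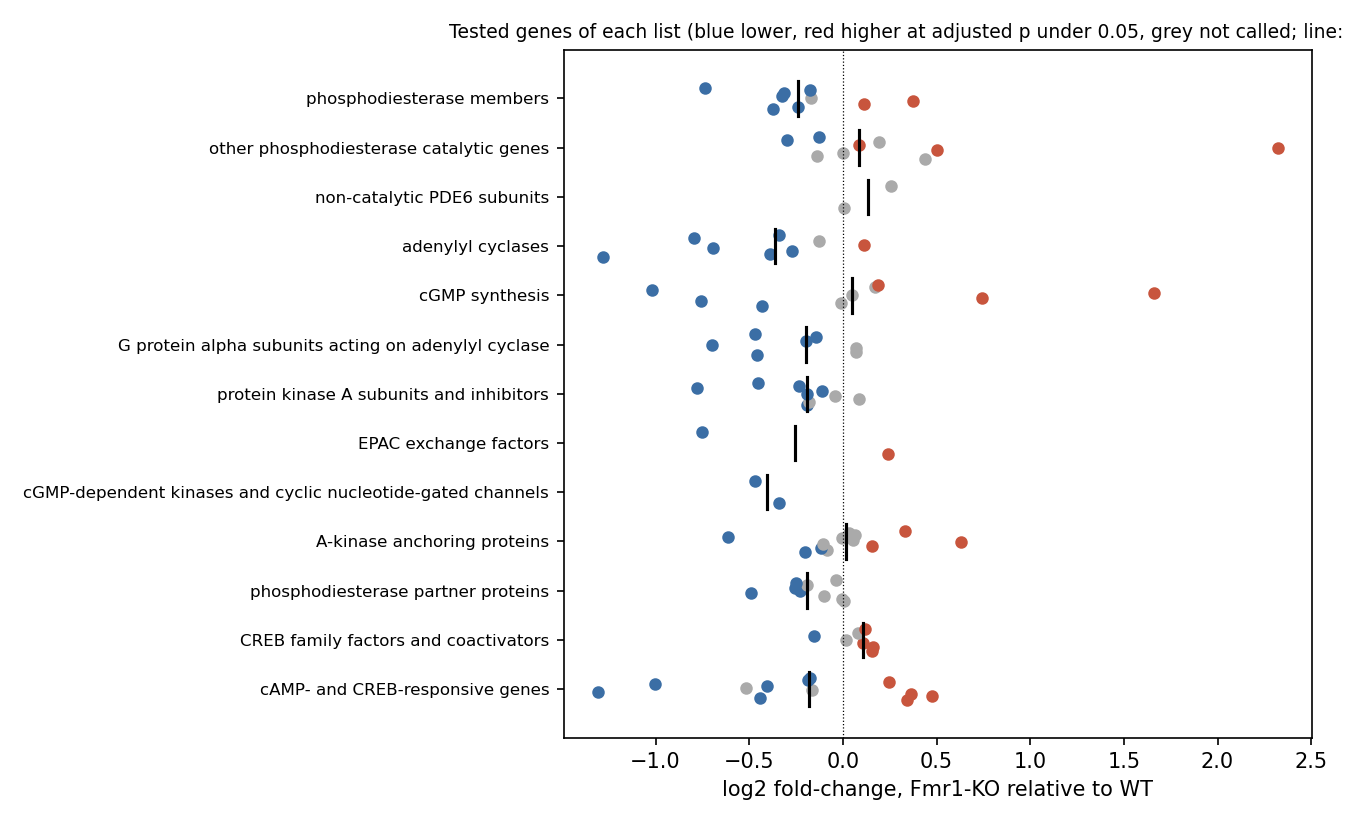
Log2 fold-change, Fmr1-KO relative to WT, of every tested gene in the members' list and in 12 lists of related genes, with a bar at each list's median. Blue points were called lower, red points higher and grey points not called at an adjusted P of 0.05 by edgeR, and the adenylyl cyclases (median -0.36) lie furthest to the left among lists with over 2 tested genes.

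No tested member changed direction in the 15 alternative fits (14 for Pde2a, from -0.31 to -0.05). Over these fits the log2 fold-change ran from -0.79 to -0.69 for Pde7b, from -0.40 to -0.35 for Pde10a, from -0.33 to -0.29 for Pde4b and from -0.36 to -0.29 for Pde4a. For Pde4d it ran from -0.21 to -0.14, for Pde1b from 0.10 to 0.14 and for Pde1c from 0.29 to 0.42. When the test required a fold change above 1.2, Pde7b and Pde10a were the only members called, and 1340 genes were lower and 883 higher.

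**Figure D5:**
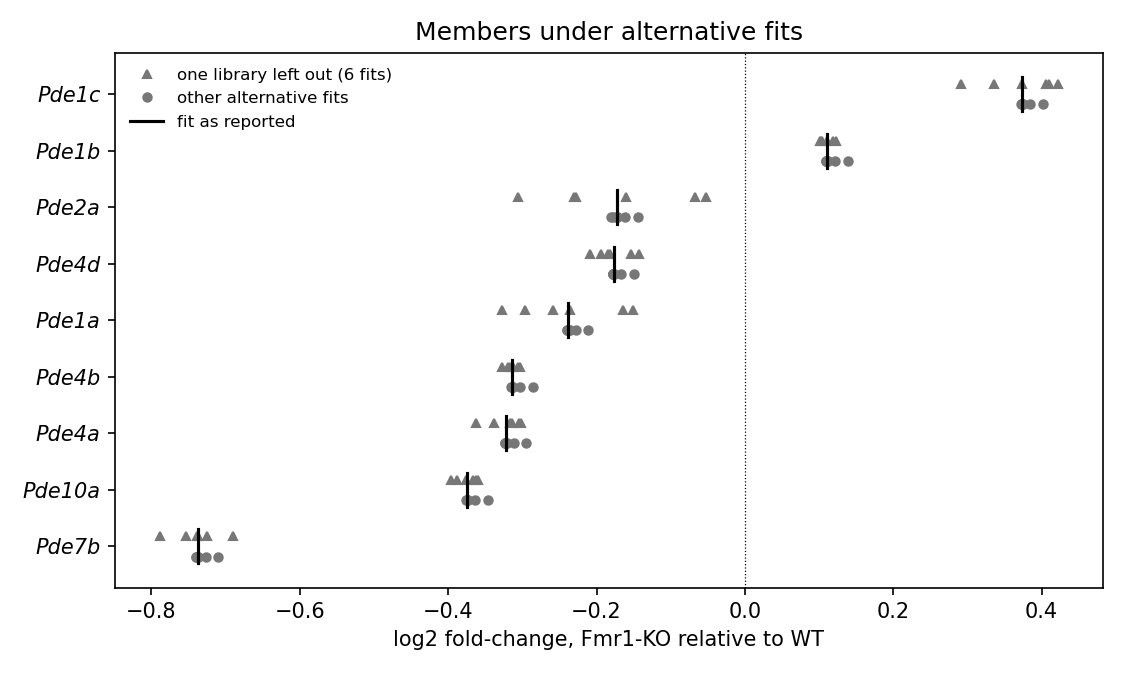
Log2 fold-change of the 9 tested members in each alternative fit, with triangles for fits that leave out 1 library, circles for other fits and a bar for the fit as reported. All points of a member lie on one side of 0, and Pde1a, Pde1c and Pde2a spread most when 1 library is left out.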

How the data were processed

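Poly(A) RNA of 6 libraries, 3 WT and 3 Fmr1-KO as labelled, was prepared with a stranded kit and sequenced single-end. The authors deposited raw counts per gene name. Per their methods, reads were trimmed with FastP, mapped with STAR to GRCm38.p6 and counted on exons with featureCounts in reverse-stranded mode. The submitters' processing notes name STAR 2.7.6a and Subread 2.0.1. Counts by gene name do not separate isoforms, and reads on exons of more than 1 gene are left out by default.

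Of 55367 rows, 31650 had a count and 16976 passed filterByExpr. The test was edgeR 4.0.16 in R 4.3.3 (TMM normalization, glmQLFit, glmQLFTest, 2-sided, genotype as the only term), with Benjamini-Hochberg adjustment over all tested genes and calls at an adjusted P under 0.05. The SE of a log2 fold-change was its absolute value over the root of F, and intervals are 95%. CPM are TMM-scaled, and levels between genes are compared only per kb of exon, with exons of GENCODE M21 (GRCm38), a release before those of the study. Fits were checked on simulated data.

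Replicates differed by more than counting noise (chi-square per degree of freedom 2.92 in WT, 3.17 in Fmr1-KO), and the common biological coefficient of variation was 3.22%. The labels name no batch.

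All 10 members were named, with up to 3 called genes per direction of each pathway list that averaged at least 5 CPM, called or abundant PDE genes, and Fmr1. Some genes of these lists are not reported here. The members and lists were chosen with earlier results of these data known. Alternatives were DESeq2 1.42.0, RLE and upper-quartile scaling, plain library totals, a replicate block, no filter on low counts, a stricter one (means of 10 counts and 5 CPM), each library left out, the 20 most abundant genes removed, a fold change above 1.2 and other exon lengths. Promoters were those of RefSeq on GRCm38.p6, in which all 10 members matched. Proteins, pre-mRNA and isoforms were not analysed here.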

Additional observations from a re-analysis of the deposited data

How the results depend on the processing

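With 3 libraries per genotype, low counts limited Pde4c (not tested) and Pde2a (95% interval -0.63 to 0.28) most. A test for a fold change above 1.2 gave 1340 genes lower and 883 higher, and 2 members lower (Pde7b and Pde10a) and 0 higher. Under it Pde4a (adjusted P = 0.282), Pde4b (0.15), Pde4d (1), Pde1a (1), Pde1b (1) and Pde1c (0.131) were not called by edgeR. Every other alternative, leaving out each library included, kept the counts of called genes and members within 1.5 times. The replicate numbers did not pair the libraries (correlations of same-numbered deviations -0.07, 0.06 and 0.01), and a replicate block gave 3694 genes lower and 3488 higher, and 6 members lower and 2 higher. Of 149 single-gene log2 fold-changes recomputed, 0 reversed and 8 lost their call, 6 of them under the fold change above 1.2 and 2 for Pde1a when 1 library was left out. Of the list medians, that of cGMP synthesis was -0.59 under the stricter filter, -0.04 without WT replicate 3 and -0.15 without Fmr1-KO replicate 2, and that of the other PDE catalytic genes was -0.06 under the stricter filter, which tests fewer genes. Pde2a did not pass the stricter filter. The median of the members, -0.24 as reported, ran from -0.32 without WT replicate 2 to -0.21 with library totals alone. Scaling moved the median of all tested genes by under 0.1, from 0.01 to 0.03 with library totals alone. Levels per kb rose for all members with the longest transcript as length, in WT from 4.13 to 11.8 CPM per kb for Pde4d (the largest move), from 8.32 to 20.4 for Pde4b, from 0.779 to 1.81 for Pde7b, from 0.753 to 1.73 for Pde1c and from 19.9 to 25.5 for Pde1b (the smallest). The PDE4 share of the WT pool moved from 29.1% to 40.3% and the PDE1 share from 44.5% to 34.1%, which reversed their order in WT. The Pde2a level over unshared exon, the shares by longest transcript and the median without Pde6c were added after the data had been seen.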

Other observations

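Pde6b and Pde6g, which encode subunits of the rod photoreceptor PDE, had too few counts for the test in the report but separated the genotypes. Counts of Pde6b were 1, 0 and 1 in WT and 16, 6 and 21 in Fmr1-KO, and those of Pde6g were 2, 1 and 0 in WT and 22, 7 and 17 in Fmr1-KO. Fitted over all 31650 genes with a count, both were higher in Fmr1-KO (adjusted P = 8.15e-09 for Pde6b and 9.18e-09 for Pde6g by edgeR). These values cannot be set beside those of the fit as reported. Without the filter the edgeR adjusted P of Pde10a was 7.51e-26 instead of 5.81e-09, and that of Pde1b 0.0144 instead of 0.00848. Pde6a, the other catalytic rod subunit, gave an adjusted P of 0.61 in that fit.

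A list of 17 photoreceptor genes was written after these values had been seen, and it supports nothing on its own. Of 8 tested, 4 were higher and 0 lower. Crx, the photoreceptor homeobox factor, was among those called higher, on 1 count in each WT library and 33, 24 and 32 in the Fmr1-KO libraries. It passed the filter on low counts only through the Fmr1-KO libraries. Otx2, a homeobox factor that also acts outside the retina, rose from 13.1 ± 0.352 to 18.6 ± 0.929 CPM (SD, n = 3), or 0.50 on the log2 scale (edgeR adjusted P = 1.88e-06), and Sag and Rp1 were called higher at about 1 CPM. Gnat1 and Opn1sw did not pass the threshold. Prph2, at 1, 0 and 0 counts in WT and 17, 7 and 11 in Fmr1-KO, was among those too low for the test. Cnga1, the rod channel subunit, had 0 counts in all 6 libraries.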
